A study of Sus scrofa with 15 samples.

Results

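Kidneys of pigs preconditioned in the late window (rIPCl) were compared with kidneys of pigs preconditioned in the early window (rIPCe). The 10 arrays of these groups, 5 rIPCl and 5 rIPCe, were chosen by their titles from the 15 of the series. Each array held RNA of 1 pig, so the spread within a window was the spread between animals. All pigs were female Yorkshire pigs of 20 weeks that had only the right kidney, the left having been removed 1 week earlier. Remote ischemic preconditioning (IPC) was the same in both windows and consisted of 2 cycles in which the right external iliac artery was clamped for 10 minutes and released. The right renal artery and vein were then clamped for 90 minutes. This warm ischemia followed IPC at once in rIPCe and 24 hours later in rIPCl. Kidney tissue was labelled as taken at 72 hours in every group. The time from IPC to ischemia and the time from IPC to the taking of the tissue cannot be told apart. The control group (5 pigs, no IPC) entered neither the normalization nor the test, and its values are given as a background.

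Remote preconditioning protects an organ through short spells of ischemia in another part of the body. Its protection comes in an early window, which opens at once and fades within hours, and a late window, which opens about a day later and depends on new gene expression. In the kidney, ischemia and reperfusion damage above all the proximal tubule, activate complement, and draw neutrophils, macrophages and lymphocytes into the tissue. During repair, leukocytes leave or persist while tubular cells regain their transporters and metabolic enzymes.

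Arrays of a window did not behave as a uniform group. Each slide held 4 arrays. The rIPCe arrays 1, 2 and 3 were on slide 2, rIPCe 4 and 5 were on slide 3 together with rIPCl 1, and rIPCl 2 to 5 were on slide 4. Only slide 3 held both windows. Over probes well above background, the median correlation of an rIPCe array with the others of its window was 0.975 to 0.981, below its median correlation with the rIPCl arrays (0.979 to 0.987). For rIPCl 2 to 5 it was the other way round (0.983 to 0.987 within the window). The array rIPCl 1 lay closer to the rIPCe arrays (0.984) than to its own window (0.982). Between 67.4% and 74.2% of the spots on an array were well above background, and no spot was saturated. Of 13 defining markers, 6 could be matched to a probe. AQP2, the water channel of the collecting duct, was well above background on all 10 arrays, and the other kidney markers UMOD, LRP2, NPHS1 and SLC12A1 were not analysed here. PECAM1 (endothelium), CD163 (macrophages), CD3E (T cells), CD79A (B cells) and S100A8 (neutrophils) were also well above background on every array of both windows.

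The windows differed in few genes, and most of the genes that differed were higher in rIPCl. Of the 3020 genes with a symbol, 29 (0.96%) met the criteria used here, at least a 2-fold difference together with a limma p below 0.05 before adjustment. Of these, 23 were higher in rIPCl (0.762% of all genes) and 6 were lower (0.199%). None passed after Benjamini-Hochberg adjustment with limma, which was made over all 43603 probes and not over the genes alone. A limma fit on the mean of all probes of each gene, adjusted over 3020 genes, also called 0. The lowest limma adjusted p of a gene, over all probes, was 0.759 (NCR1, not well above background on any rIPCe array). At any fold 182 genes had an unadjusted p under 0.05. Among those 182, 136 were higher in rIPCl (4.5% of all genes) and 46 were lower (1.52%). The methods' t-test on the same values called 21 genes and 218 probes at the same thresholds, and 0 genes and 1 probe after Benjamini-Hochberg adjustment. Over all genes the median log2 fold change was 0.02, 53.7% lay above 0, and 86.6% lay within 0.5 of 0. Of all 43603 probes, named or not, 290 met the unadjusted criteria (0.665%), 166 of them higher (0.381%) and 124 lower (0.284%), and 208 of the 290 were not well above background throughout either window. At any fold 2012 probes had a p under 0.05 (4.61%), and 311 did not overlap between the windows (0.713%). Subtracting each array's 75th percentile in place of quantile normalization gave 127 higher and 278 lower probes, and no normalization between arrays gave 60 and 551, with 8 higher and 19 lower genes and a median of all genes of -0.13. After adjustment 1 probe passed (0.00229%; A_72_P432834, without a gene symbol, limma adjusted p = 0.00405), and since it was not well above background on any array of either window no fold is given.

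**Figure D1:**
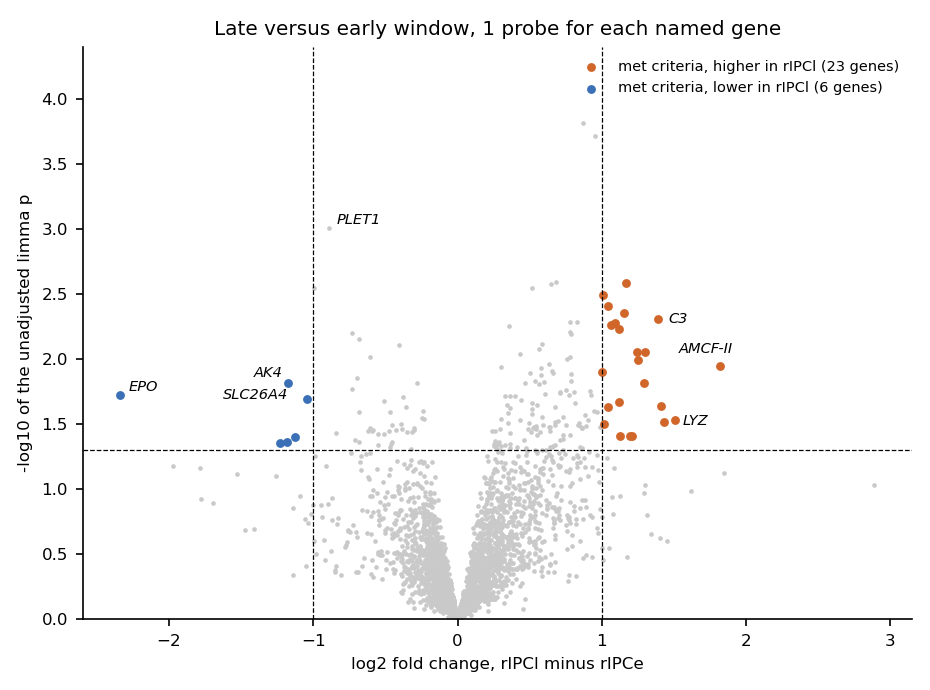
Log2 fold change (x axis, rIPCl minus rIPCe) and -log10 of the unadjusted limma p (y axis) of the 3020 named genes, with dashed lines at a fold of 2 and a p of 0.05. The 23 genes that met both criteria and were higher in rIPCl stand at the right, the 6 lower ones at the left, and PLET1 has a small p below the fold limit.

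The complement gene C3 was higher on all rIPCl arrays. C3 is the component on which all routes of complement activation meet. On the rIPCe arrays 1 to 5 its log2 signal was 9.16, 11.41, 11.34, 10.82 and 10.45, and on the rIPCl arrays 11.91, 12.30, 12.13, 11.98 and 11.81. Every rIPCl array lay above every rIPCe array, and the spread was wide in rIPCe (SD 0.92) and narrow in rIPCl (SD 0.19, n = 5 each). The log2 fold change was 1.39 (SE 0.38, 2.62-fold, limma unadjusted p = 0.00489), and its 5 probes gave 1.22 to 1.43. An exact two-sided permutation test gave p = 0.00794, the smallest that the 252 assignments allow. Any gene without overlap between the windows gets this value, so it adds nothing to the separation already described. C3 was also the only gene that was well above background, met the criteria and had no overlap between the windows, whereas over all genes 0.364% were higher without overlap and 0.331% lower without overlap. It met the criteria when any 1 array was left out, and within slide 3 its difference was 1.27.

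Other early components of complement were higher in rIPCl as well. C1QA, a chain of C1q that recognises antibody complexes and dying cells, had signals of 10.03, 11.17, 10.12, 10.64 and 10.77 in rIPCe and 10.71, 11.73, 12.22, 12.12 and 11.73 in rIPCl. Its 4 rIPCl arrays on slide 4 lay above all rIPCe arrays, and rIPCl 1 lay among them. The log2 fold change of C1QA was 1.15 (SE 0.31, limma unadjusted p = 0.00443), and it met the criteria without any 1 array, but within slide 3 it was 0.01. The other C1q chains, C1QC (0.93, SE 0.33) and C1QB (0.75, SE 0.30), and C2 (0.99, SE 0.40), the next component of the classical and lectin routes, stayed below a fold of 2. The other probe of C2 gave 0.43. Within slide 3 C1QB was at -0.29, C2 at -0.35 and C1QC at 0.16. SERPING1, the inhibitor of C1, did not overlap between the windows, with 12.21 to 13.38 in rIPCe and 13.39 to 13.94 in rIPCl and a log2 fold change of 0.61 (SE 0.22).

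Of the complement list, 29 genes were measured, of which 22 lay above 0, and 8 had an unadjusted p under 0.05, all of them higher. The median was 0.28 beside 0.02 over all genes. Of all genes 53.7% lay above 0, and 4.5% had an unadjusted p under 0.05 and were higher. Lower with such a p were 1.52%, and these shares apply to every list below. The members with roles in C1 and the lectin pathway had a median of 0.41 (10 of 11 above 0), while the 7 terminal components, which form the membrane attack complex, had a median of -0.02 with 3 above 0. The coagulation and fibrinolysis list, 21 genes, had a median of -0.08 with 7 above 0. Its member with a p under 0.05 was F5, coagulation factor V, at 10.81, 10.35, 9.99, 10.29 and 10.61 in rIPCe and 9.20, 9.99, 9.74, 9.61 and 10.08 in rIPCl, a log2 difference of -0.68 (SE 0.20).

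**Figure D2:**
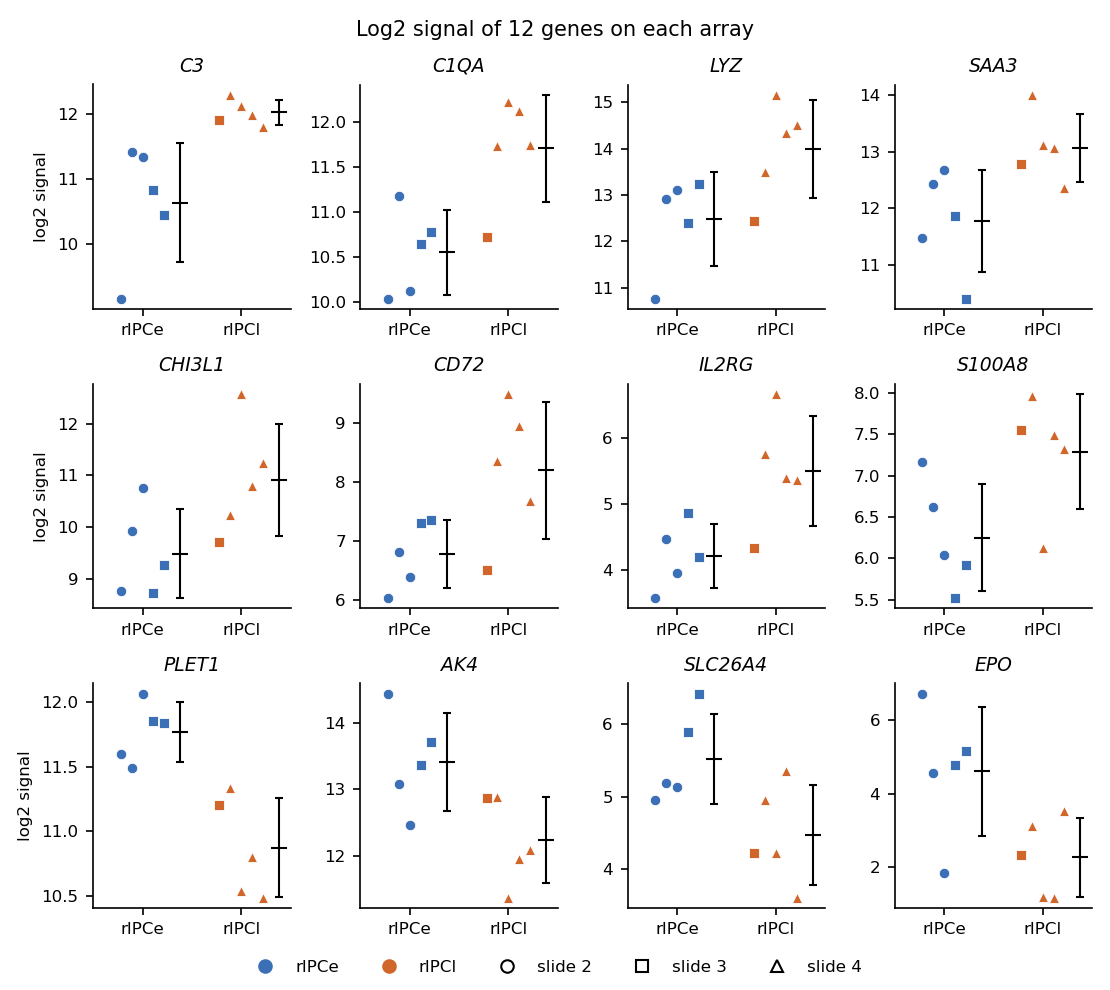
Log2 signal (y axis) of 12 genes on each rIPCe (blue) and rIPCl (orange) array, with the symbol giving the slide and the bar the mean ± SD of 5 arrays. C3 and PLET1 do not overlap between the windows, and for C1QA, LYZ, CD72 and IL2RG the rIPCl array on slide 3 lies among the rIPCe arrays.

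The higher genes included LYZ and SPI1 of the macrophage and monocyte list, and SAA3 and CHI3L1, which were in no list. LYZ, which encodes lysozyme, was at 10.77, 12.91, 13.11, 12.40 and 13.24 in rIPCe and at 12.45, 13.49, 15.16, 14.34 and 14.51 in rIPCl. SAA3, an acute-phase serum amyloid A, was at 11.47, 12.44, 12.68, 11.86 and 10.41 in rIPCe and at 12.79, 14.00, 13.12, 13.07 and 12.36 in rIPCl. CHI3L1, a chitinase-like glycoprotein made by macrophages and injured epithelium, was at 8.76, 9.93, 10.75, 8.72 and 9.27 in rIPCe and at 9.72, 10.24, 12.57, 10.80 and 11.24 in rIPCl. In each of these genes 3 or 4 rIPCl arrays lay above all rIPCe arrays. The log2 fold changes were 1.51 for LYZ (SE 0.59), 1.29 for SAA3 (SE 0.44) and 1.43 for CHI3L1 (SE 0.57), and within slide 3 they were -0.37, 1.65 and 0.73. The exact permutation p was 0.0556 for LYZ and CHI3L1 and 0.0238 for SAA3. Without rIPCl 3 the p of LYZ was 0.0729 and that of CHI3L1 was 0.0623 (limma, unadjusted), and without rIPCe 5 SAA3 was at 0.95 and below a fold of 2.

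SPI1, the transcription factor PU.1 that directs myeloid development, was at 3.30, 4.32, 3.38, 3.21 and 2.81 in rIPCe, where 1 array was well above background, and at 4.12, 4.01, 4.69, 4.85 and 4.56 in rIPCl, where all were. Its log2 fold change was 1.04 (SE 0.28). TLR8, an endosomal sensor of single-stranded RNA, was higher by 1.01 (SE 0.26), with 4 rIPCl arrays above all rIPCe arrays, and was at 0.07 within slide 3. Normexp background correction is an alternative that starts from the unprocessed spot signals and adds an offset of 50. The offset makes log2 differences of dim probes smaller, and its part in the normexp values was not tested. With this correction SPI1 was at 0.22 and TLR8 at 0.28. Among the 23 measured genes of the macrophage and monocyte list, 19 lay above 0, beside 53.7% of all genes. In 10 the p was under 0.05, all higher, beside 4.5% of all genes, with LYZ and SPI1 past a fold of 2. The median was 0.55, and 0.31 with normexp background correction. FCER1G (0.78, SE 0.24) and TYROBP (0.65, SE 0.21), adaptor proteins of activating receptors on myeloid cells, and ITGB2 (0.88, SE 0.34), the common chain of leukocyte integrins, were among those below a fold of 2. CD163, the scavenger receptor that marks macrophages, was at 11.37 ± 0.69 in rIPCe and 11.99 ± 0.61 in rIPCl (SD, n = 5 each), a difference of 0.62 (SE 0.38) that did not pass. In whole kidney tissue, more cells of a type and more RNA per cell cannot be told apart.

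Of the 9 measured neutrophil genes, 8 lay above 0 (53.7% of all genes did) and the median was 0.61. In 3 the p was under 0.05, all higher, beside 4.5% of all genes. With normexp background correction the median was 0.13. S100A8, a calcium-binding protein of neutrophils and monocytes, was at 7.16, 6.62, 6.04, 5.52 and 5.91 in rIPCe and at 7.55, 7.97, 6.12, 7.49 and 7.33 in rIPCl. All rIPCl arrays other than rIPCl 3 lay above every rIPCe array. The log2 fold change was 1.04 (SE 0.39), and within slide 3 it was 1.83. It kept the criteria in 4 of the 10 cases in which 1 array was left out, and without rIPCl 1 it was at 0.98 (limma unadjusted p = 0.0506). Signals on the control arrays, normalized together with both windows, were 4.87 to 8.26 with a mean of 7.22, beside means of 6.25 in rIPCe and 7.30 in rIPCl.

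All 28 measured genes of antigen presentation were above 0 (53.7% of all genes were), with a median of 0.61. Of these, 11 had a p under 0.05, beside 4.5% of all genes that were higher with such a p. The class II genes, which present peptides to helper T cells, had a median of 0.65 over 9 genes, 6 of them with a p under 0.05. The class I genes with their peptide-processing machinery had a median of 0.40 over 13 genes, and the costimulatory genes 0.75 over 6. CD74, the invariant chain that guides class II molecules, was at 10.92, 11.50, 11.40, 12.05 and 11.76 in rIPCe and at 11.71, 12.36, 13.18, 12.18 and 12.25 in rIPCl, a log2 fold change of 0.81 (SE 0.28). SLA-DRA, a class II chain, differed by 0.65 (SE 0.29), SLA-DMA, which helps to load peptide, by 0.60 (SE 0.20), and PSMB8, a subunit of the immunoproteasome, by 0.81 (SE 0.30). PDCD1LG2, the PD-1 ligand PD-L2, passed a fold of 2 with 2.65, 4.02, 3.51, 3.89 and 4.13 in rIPCe and 3.70, 4.90, 5.90, 4.87 and 4.44 in rIPCl (1.12, SE 0.41). Without rIPCl 3 PDCD1LG2 was at 0.84, and without rIPCe 1 at 0.88. SLA probes may take up transcripts of closely related SLA genes.

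The antigen presentation genes were higher on the rIPCl arrays of slide 4, while rIPCl 1 lay among the rIPCe arrays. As medians over the 28 genes, deviations from the mean of the 10 arrays were -0.70, -0.11, -0.45, -0.01 and -0.15 on the rIPCe arrays and -0.29, 0.31, 1.20, 0.21 and 0.14 on the rIPCl arrays. The highest value belonged to rIPCl 3 and the lowest to rIPCe 1. Without rIPCl 3 the median difference was 0.40 with all 28 genes still above 0, and without rIPCe 1 it was 0.49. Within slide 3 it was -0.20, with 7 of 28 genes above 0, and CD74 (-0.20), SLA-DRA (-0.28), SLA-DMA (-0.06), PSMB8 (-0.08) and PDCD1LG2 (-0.31) were all below 0.

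The list of T and NK cells likewise had its highest median deviation on rIPCl 3 and its lowest on rIPCe 1. Of 24 measured genes of T and NK cells 22 lay above 0 (53.7% of all genes did). Their median was 0.78, the highest of the 26 lists. In 4 the p was under 0.05, all higher, beside 4.5% of all genes. CD96, an adhesion receptor of T and NK cells, was at 5.21, 4.98, 5.00, 6.04 and 5.31 in rIPCe and at 5.15, 6.36, 8.14, 6.39 and 6.14 in rIPCl, a log2 fold change of 1.13 (SE 0.47). Its highest array was rIPCl 3, without which the difference was 0.70 (limma unadjusted p = 0.0516). CD3E, a chain of the T cell receptor complex, was at 7.20 ± 0.56 in rIPCe and 8.11 ± 0.98 in rIPCl, and GZMA, a protease of cytotoxic cells, differed by 1.08 (SE 0.70). Neither passed. Within slide 3 CD96 was at -0.53, CD3E at -0.70 and GZMA at -1.07. IL2RG, the receptor chain shared by several interleukins, was at 3.57, 4.47, 3.95, 4.86 and 4.19 in rIPCe and at 4.34, 5.76, 6.67, 5.40 and 5.36 in rIPCl. It differed by 1.30 (SE 0.40) and met the criteria without any 1 array, with values of 1.01 to 1.59, and within slide 3 it was at -0.18. With normexp background correction it was at 0.42.

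The 5 measured B cell genes all lay above 0, with a median of 0.44. CD72, a coreceptor of B cells, was at 6.04, 6.82, 6.39, 7.31 and 7.35 in rIPCe and at 6.51, 8.35, 9.48, 8.95 and 7.68 in rIPCl, so that the slide 4 arrays lay above all others. Its log2 fold change was 1.41 (SE 0.53) over all arrays and -0.82 within slide 3. Without rIPCl 3 the limma p no longer passed. POU2F2, the B cell transcription factor Oct-2, differed by 1.07 (SE 0.30). CD79A, the signalling chain of the B cell receptor, differed by 0.65 (SE 0.33), which did not pass, and its highest array was rIPCl 3 at 7.12.

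Most chemokine and all interferon genes lay above 0. Of 37 chemokine and receptor genes 30 lay above 0 (53.7% of all genes did), with a median of 0.59. The 10 CXC ligands had a median of 0.94. AMCF-II, a porcine CXC chemokine that attracts neutrophils, was at 4.38, 5.83, 3.50, 3.53 and 3.79 in rIPCe and at 5.91, 5.02, 5.88, 7.82 and 5.53 in rIPCl. It had the largest log2 fold change of the higher genes that passed, 1.82 (SE 0.59), met the criteria without any 1 array, and was at 2.25 within slide 3, but at 0.72 with normexp background correction. CCL19, a ligand that guides T cells and dendritic cells, was at 9.96, 9.89, 9.82, 10.37 and 10.58 in rIPCe and at 10.90, 11.35, 12.27, 10.47 and 10.63 in rIPCl (1.00, SE 0.33). Without rIPCl 3 CCL19 was at 0.72. Below a fold of 2, CXCL2, a neutrophil attractant, differed by 0.90 (SE 0.35) and CCL4, which draws monocytes and lymphocytes, by 0.89 (SE 0.36), with 1.20 and -0.08 within slide 3.

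Of 54 cytokine and receptor genes 46 lay above 0 (median 0.24), and besides IL2RG only IL27 passed a fold of 2. IL27, a subunit of an interleukin that steers T cell responses, was at 4.34, 5.17, 4.71, 4.92 and 4.99 in rIPCe and at 4.91, 6.06, 6.89, 5.80 and 6.07 in rIPCl (1.12, SE 0.32), and it was at 0.89 without rIPCl 3 and at -0.04 within slide 3. All 34 interferon response genes lay above 0 (53.7% of all genes did), with a median of 0.37. Of these, 4 had a p under 0.05 (4.5% of all genes were higher with such a p) and none reached both criteria. The members of that list included BST2, which tethers virus particles (0.78, SE 0.27), IRF7, a regulator of type I interferon (0.53, SE 0.21), and GBP1, an interferon-induced GTPase that did not pass (0.98, SE 0.52). TMEM173, the DNA-signalling adaptor STING, did not overlap between windows, with 7.89 to 8.43 in rIPCe and 8.47 to 8.78 in rIPCl, a difference of 0.51 (SE 0.13). CMKLR1, the chemerin receptor of macrophages and NK cells, did not overlap either (0.65, SE 0.16), and was at 0.64 within slide 3 and at 0.11 with normexp background correction.

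**Figure D3:**
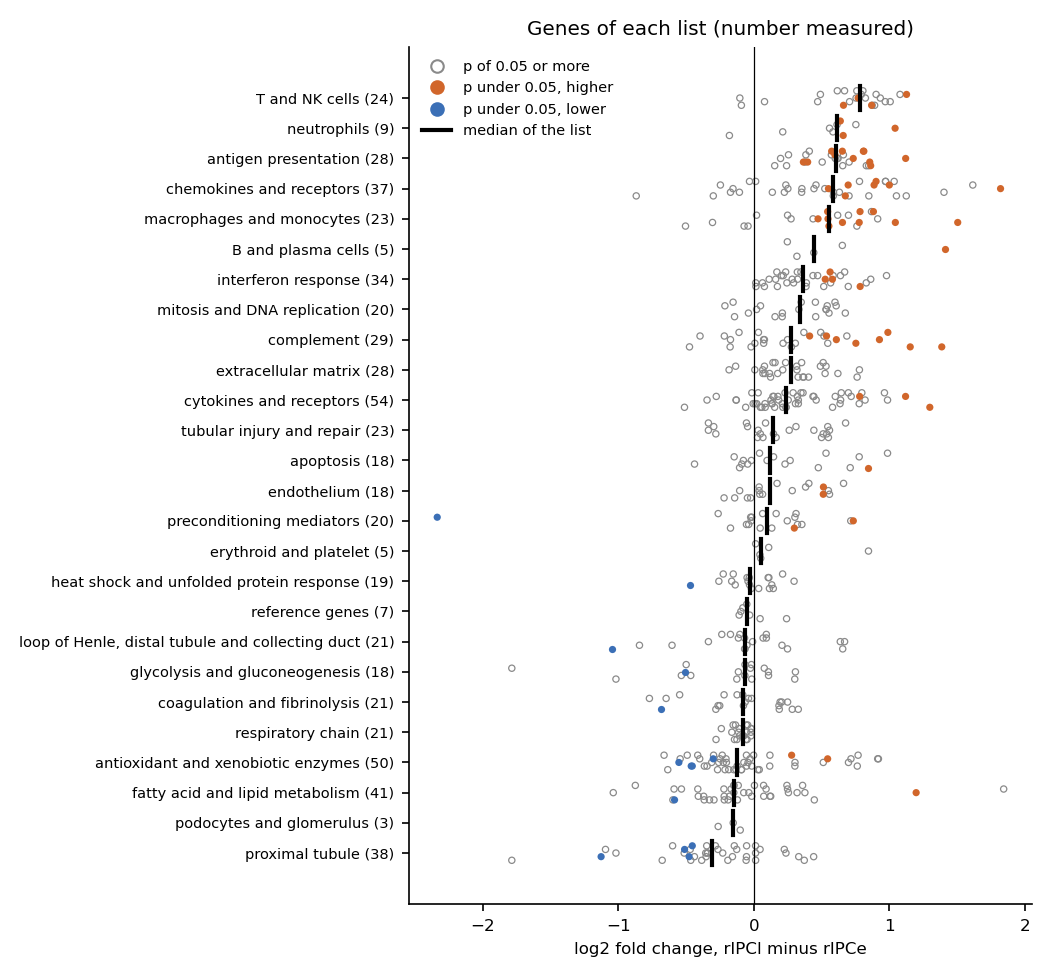
Log2 fold changes (x axis, rIPCl minus rIPCe) of the measured genes of 26 lists (rows, number of genes in parentheses), with a bar at each median and filled points where the unadjusted limma p is under 0.05. T and NK cells stand at the top with a median of 0.78 and the proximal tubule at the bottom with -0.31.

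**Figure D4:**
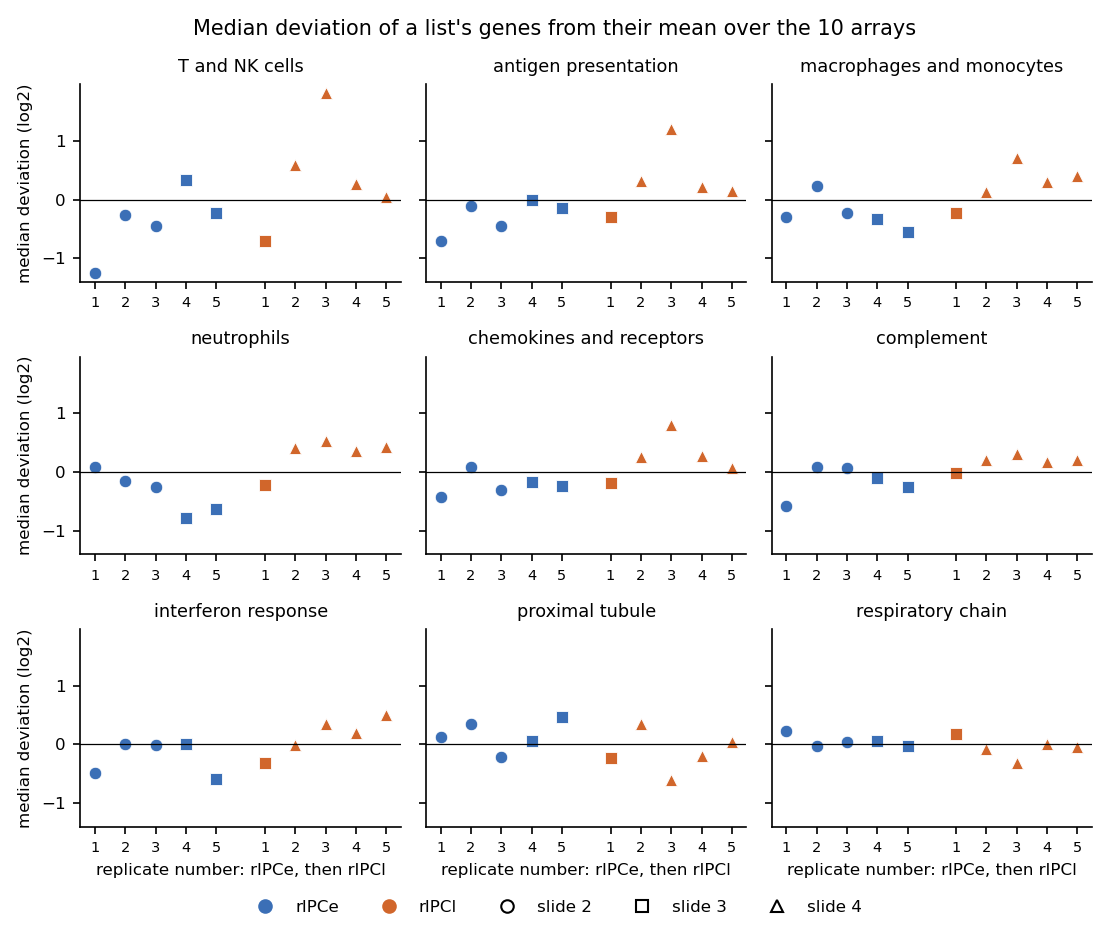
Median deviation (y axis, log2) of the genes of 9 lists on each of the 5 rIPCe (blue) and 5 rIPCl (orange) arrays, with the symbol giving the slide. The array rIPCl 3 is highest for T and NK cells, antigen presentation, macrophages and neutrophils and lowest for the proximal tubule and the respiratory chain.

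Taking the 23 higher genes together, the arrays of rIPCl did not contribute equally. In 3 genes all 5 rIPCl arrays lay above every rIPCe array, in 16 genes 4 did, and in 4 genes 3 did. The genes were chosen for being higher in rIPCl, so these counts are partly built in. The 3 genes were C3, FCAR and PAG6. FCAR and PAG6 were not well above background throughout either window, and another PAG6 probe lay below 0. Where 4 lay above, the fifth was rIPCl 1 in 13 of the 16 genes. The array rIPCl 3 was the highest of its window in 16 of the 23 genes and rIPCl 1 the lowest in 15. Among rIPCe arrays, rIPCe 1 was the lowest in 10. Slide 4 held only rIPCl arrays, so slide 4 and the late window cannot be told apart for those 4 arrays. Leaving out rIPCl 3, 9 of the 29 genes that passed still met the criteria, and leaving out rIPCe 1, 15 did. The criteria were met without any 1 array by 5 genes, AMCF-II, C1QA, C3, EPO and IL2RG. With normexp background correction 8 of the 29 met the criteria (C3, C1QA, LYZ, SAA3, CHI3L1, AK4, BHMT and PGM1), so that AMCF-II (0.72), IL2RG (0.42) and EPO (-0.51) did not. The same correction gave 0.91 for CD72, 0.73 for APOE, 0.64 for S100A8, 0.50 for CD96, 0.43 for IL27, 0.33 for POU2F2, 0.30 for TNFAIP6, 0.26 for PDCD1LG2 and -0.31 for SLC26A4. Its offset of 50 makes the differences of dim probes smaller, and the part of the offset in these values was not tested.

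Other higher genes belonged to none of these groups. APOE, the lipid carrier that macrophages also secrete, was at 4.74, 7.37, 6.71, 6.72 and 6.62 in rIPCe and at 6.47, 7.64, 8.46, 7.55 and 8.03 in rIPCl (1.20, SE 0.50). Without the low array rIPCe 1 its difference was 0.78 (limma unadjusted p = 0.0652), and within slide 3 it was -0.20. TNFAIP6, a hyaluronan-binding protein induced in inflammation, differed by 1.21 (SE 0.51), and AMBN, the enamel matrix protein ameloblastin, by 1.25 (SE 0.39). FCAR, PAG6, PNMT and EDDM3B also met the criteria, but none of these was well above background throughout a window, and no fold is given for them. LBX1, a homeobox transcription factor, did not overlap between windows (0.68, SE 0.17, and 0.08 with normexp background correction), and PPP1R18, an actin-binding phosphatase subunit, differed by 0.78 (SE 0.22).

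The 6 lower genes were BHMT, AK4, PGM1, EPO, SLC26A4 and CLDN20. BHMT, which remethylates homocysteine in proximal tubule and liver, was at 13.64, 12.57, 11.12, 12.75 and 12.40 in rIPCe and at 11.37, 12.18, 10.20, 11.38 and 11.70 in rIPCl, a log2 difference of -1.13 (SE 0.48). AK4, a mitochondrial adenylate kinase, was at 14.45, 13.09, 12.46, 13.37 and 13.71 in rIPCe and at 12.87, 12.89, 11.37, 11.95 and 12.09 in rIPCl (-1.18, SE 0.40). PGM1, which interconverts glucose phosphates, was at 13.07, 13.26, 12.18, 12.34 and 12.64 in rIPCe and at 12.82, 10.19, 11.70, 10.45 and 12.42 in rIPCl (-1.18, SE 0.51), although its other probe gave -0.13. Their windows overlapped. Without rIPCe 1 the differences were -0.84 for BHMT, -0.92 for AK4 and -1.09 for PGM1, none of which met the criteria. Within slide 3 PGM1 was at 0.33. CTH, which makes cysteine and hydrogen sulfide, stayed below a fold of 2 at -0.73 (SE 0.21), with 4 rIPCl arrays below all rIPCe arrays.

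Of 38 measured proximal tubule genes 29 lay below 0 (46.3% of all genes did), and the median was -0.31. In 4 the p was under 0.05, all lower, beside 1.52% of all genes. Besides BHMT these were FBP1, an enzyme of gluconeogenesis (-0.51, SE 0.21), DAO, which oxidises D-amino acids (-0.48, SE 0.19), and FMO1, a flavin monooxygenase (-0.45, SE 0.18). On rIPCe 3 DAO was missing as an outlier spot, and over all alternatives its difference ranged from -0.70 to 0.11. The enzymes had a median of -0.36 over 18 genes and the transporters -0.27 over 16. Larger differences that did not pass were those of G6PC (-1.79, SE 0.87), PCK1 (-1.02, SE 0.66) and CYP27B1 (-1.10, SE 0.63), which make glucose and active vitamin D. G6PC ranged from 7.87 to 10.80 in rIPCe and from 6.27 to 11.09 in rIPCl, so that rIPCl 2 was the highest of all 10 arrays. By array the median deviation of the list was 0.12, 0.35, -0.21, 0.06 and 0.46 in rIPCe and -0.23, 0.35, -0.61, -0.19 and 0.04 in rIPCl. The array rIPCl 3, highest for the lymphocyte and macrophage lists, was the lowest here, and without it the median difference was -0.12. Within slide 3 the median was -0.40.

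All 21 respiratory chain genes lay below 0, but by little, with a median of -0.08, a range of -0.28 to -0.02 and no p under 0.05. Within slide 3 their median was 0.18. Fatty acid and lipid metabolism (41 genes) had a median of -0.15 and antioxidant and xenobiotic enzymes (50 genes) -0.13. Both lists were mixed. In the former, fatty acid oxidation (20 genes) had a median of -0.18, and apolipoproteins and lipid carriers (21 genes) 0.07. In the latter, the medians were -0.07 for antioxidant enzymes (23 genes), -0.27 for conjugation and oxidation (20 genes) and 0.70 for NADPH oxidases (7 genes). SCP2, which carries sterols and fatty acids in peroxisomes, differed by -0.59 (SE 0.24). GLUD1, the mitochondrial glutamate dehydrogenase, differed by -0.38 (SE 0.14), its 10 probes giving -0.42 to -0.26.

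EPO, the hormone by which the kidney drives red cell formation and which responds to low oxygen, had the largest difference of the lower genes. It was at 6.71, 4.55, 1.86, 4.76 and 5.15 in rIPCe, well above background on 4 arrays, and at 2.33, 3.11, 1.19, 1.18 and 3.52 in rIPCl, well above background on 1. The log2 difference was -2.34 (SE 0.83, limma unadjusted p = 0.0190, exact permutation p = 0.0476), and since most rIPCl values lay near background its size is uncertain. Without any 1 array the criteria were still met, with values of -3.04 to -1.83, and within slide 3 it was -2.63, but with normexp background correction it was -0.51. EPO stood alone among the 20 preconditioning mediators, whose median was 0.10. HIF1A (0.05), VEGFA (-0.26), HMOX1 (-0.05), NOS2 (-0.02) and NOS3 (-0.02), known effectors of hypoxia and of the late window, did not pass. ADORA3, an adenosine receptor (0.73, SE 0.33), and ACE, which degrades bradykinin (0.30, SE 0.13), had a p under 0.05 and were higher, but ADORA3 was at -0.32 within slide 3 and its p was above 0.05 with the 75th percentile subtracted.

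SLC26A4, the chloride-bicarbonate exchanger pendrin of intercalated cells in the collecting duct, was at 4.96, 5.19, 5.13, 5.89 and 6.42 in rIPCe and at 4.22, 4.95, 4.22, 5.35 and 3.61 in rIPCl (-1.05, SE 0.38). It was the only one of 21 genes of the loop of Henle, distal tubule and collecting duct that passed, and the list's median was -0.06. Without rIPCe 5 or rIPCl 5 it was below a fold of 2, as it was without rIPCe 4, rIPCl 1 or rIPCl 3, with a smallest difference of -0.82. PLET1, an epithelial surface protein, had the smallest p of the genes well above background (limma unadjusted p = 0.000981). It was at 11.60, 11.49, 12.06, 11.86 and 11.84 in rIPCe and at 11.21, 11.33, 10.54, 10.80 and 10.49 in rIPCl, without overlap, a difference of -0.89 (SE 0.19) that 3 probes shared (-0.91 to -0.89). RCN2, a calcium-binding protein of the endoplasmic reticulum, differed by -0.28 (SE 0.09) without overlap. CLDN20 met the criteria but was well above background on 1 array only, and no fold is given for it.

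Several programmes of injury and repair held no gene that met the criteria. None of the 23 genes of tubular injury and repair had a p under 0.05 (median 0.14), among them CLU (0.55, SE 0.31), VCAM1 (0.56, SE 0.29), SPP1 (0.07, SE 0.43) and ANXA2 (-0.28, SE 0.35). Of 20 genes of mitosis and DNA replication 16 lay above 0 (median 0.34), among them all 12 of mitosis itself, but none had a p under 0.05 and the list's median deviation was both lowest (-0.84) and highest (0.63) on rIPCe arrays. Extracellular matrix genes lay above 0 in 26 of 28 cases (median 0.28), none with a p under 0.05, and MGP, an inhibitor of calcification, differed by 0.78 (SE 0.54). The medians were 0.12 for 18 endothelial genes, with PECAM1 at 0.04 (SE 0.16), 0.12 for 18 genes of apoptosis, 0.05 for 5 erythroid and platelet genes, -0.03 for 19 heat shock and unfolded protein genes, -0.07 for 18 genes of glycolysis and gluconeogenesis, and -0.15 for 3 podocyte genes.

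Of the genes that the study measured by RT-PCR, IL10, TGFB1, PLAT, PLAU and ARG1 were tested here and none passed, while A2M and UPTI were not analysed here. The study compared the RT-PCR levels of each window with the control group. The test here sets the windows against each other, so it does not bear on that comparison. IL10, an anti-inflammatory cytokine, differed by 0.65 (SE 0.30, limma unadjusted p = 0.0561), with 4 rIPCl arrays above all rIPCe arrays. TGFB1 (0.33, SE 0.21), PLAT (0.19, SE 0.25) and PLAU (0.19, SE 0.43), the last pair being plasminogen activators, lay within their spread. ARG1, the arginase of alternatively activated macrophages, ranged from 5.26 to 10.07 in rIPCe and from 5.54 to 7.77 in rIPCl (-0.31, SE 0.88). GAPDH, a reference gene, was at -0.03 (SE 0.13), and at 0.01 with each array's 75th percentile subtracted. The 7 reference genes had a median of -0.05.

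The order of the lists changed when the comparison was held within slide 3, which set rIPCl 1 against rIPCe 4 and 5. There the median was -0.61 for T and NK cells, -0.33 for B cells and -0.20 for antigen presentation, against 0.78, 0.44 and 0.61 over all arrays. Macrophages (0.21), neutrophils (0.10), complement (0.09), interferon response (0.05) and chemokines (0.02) were above 0 but smaller. Extracellular matrix (0.81), tubular injury and repair (0.77) and mitosis (0.67) were larger. With 1 rIPCl array, this comparison had no replicate of the late window. A fit with slide as a block, which rests on the same 3 arrays, gave 1448 probes and 109 genes at the unadjusted criteria, of which 111 probes and 7 genes passed after adjustment (limma) and 3 genes were among the 29. When each array was left out in turn, the medians of the immune lists kept their sign, from 0.44 to 0.99 for T and NK cells, 0.40 to 0.77 for antigen presentation and 0.47 to 0.70 for macrophages, and that of the proximal tubule stayed between -0.46 and -0.12.

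**Figure D5:**
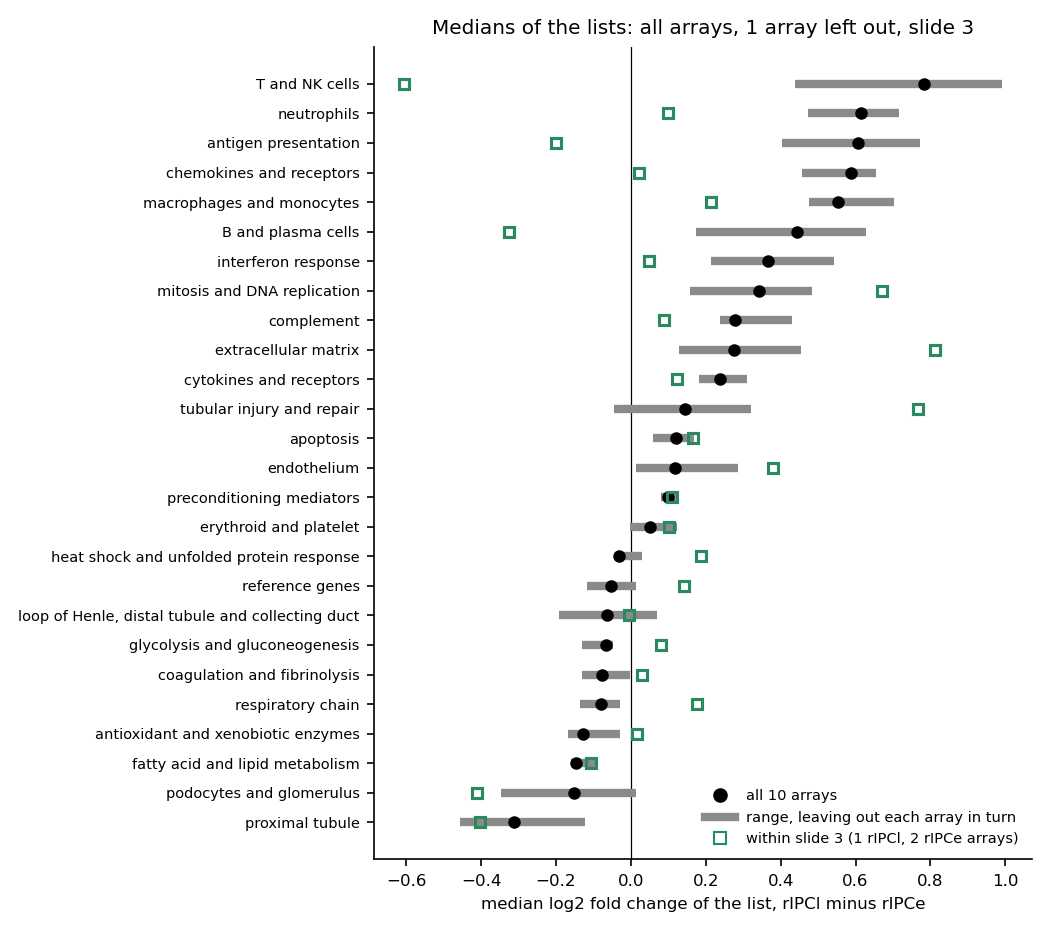
Median log2 fold change (x axis, rIPCl minus rIPCe) of each of 26 lists (rows) over all 10 arrays (points), the range when each array is left out in turn (bars) and the value within slide 3 (squares, 1 rIPCl and 2 rIPCe arrays). T and NK cells are at 0.78 over all arrays and at -0.61 within slide 3, and the proximal tubule lies below 0 in all of these.

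The control arrays, normalized together with both windows, are given as a background. In 17 of the 23 higher genes the control mean was below both windows, and in 6 it lay between them. The higher and the lower genes were chosen by their difference between the windows. No share over all genes is given beside these counts, so they cannot be weighed. C3 had a control mean of 9.43 ± 0.53 beside 10.66 in rIPCe and 12.07 in rIPCl. LYZ had a control mean of 10.38 ± 1.57 beside 12.54 and 14.05. Of the 6 lower genes 3 had a control mean above both windows, as AK4 (14.30 ± 0.38, beside 13.47 in rIPCe and 12.28 in rIPCl), BHMT (13.87 ± 0.72, beside 12.54 and 11.40) and SLC26A4 (6.73 ± 0.43, beside 5.52 and 4.46). EPO had a control mean of 4.16 ± 1.60 beside 4.63 in rIPCe and 2.35 in rIPCl. All SDs are over 5 control arrays, of which 4 were on a slide with no other group.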

How the data were processed

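Kidney RNA of 15 pigs was labelled with 1 dye and hybridised by the authors to Agilent porcine arrays, with a separate array for each animal. The deposited scanner files hold spot intensity values that the authors extracted with Agilent Feature Extraction 11.0.1.1, and the deposited table holds the same processed signal on a linear scale, the mean of the spots of a probe. Of 45220 spots per array 1417 were control spots and were left out. Outlier-flagged spots were set to missing (142 probes). Processed signals of the 10 rIPCe and rIPCl arrays were converted here to log2 values, quantile normalized and averaged over the spots of a probe (43603 probes). Matching RefSeq accessions to pig genes named 6686 probes and 3020 genes, each represented by its brightest probe, while 8220 probes listed by Ensembl transcript stayed unnamed. Tests used limma 3.58.1 in R 4.3.3 (lmFit, eBayes, Benjamini-Hochberg), and exact two-sided permutation tests were run for single genes. The criteria, at least a 2-fold difference and a p below 0.05 before adjustment, use the limits of fold and p that the study states, applied here to limma's unadjusted p. The study's methods name a t-test with Benjamini-Hochberg adjustment, which was run as an alternative. The number of arrays limits the precision, with a median SE of 0.20 per gene on the log2 scale. The statistics were also tested on simulated data.

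The members and the gene lists were chosen with earlier results of these data known. Genes were named where they met the criteria, where they did not overlap or had the smallest p (8 in each direction), as leading or brightest members of a list, or as reference and RT-PCR genes. ACTB and A2M were not matched. The result of 1 gene chosen by these rules is not reported here. All other genes were chosen after their values were seen: ACE, ADORA3, AQP2, BST2, C1QB, C1QC, C2, CCL4, CD163, CD3E, CD74, CD79A, CXCL2, CYP27B1, DAO, FCER1G, FMO1, G6PC, GBP1, GZMA, HIF1A, HMOX1, IRF7, ITGB2, NOS2, NOS3, PCK1, PSMB8, SCP2, SERPING1, SLA-DMA, SLA-DRA and TYROBP. Alternatives covered normalization, background correction, dim probes, slides, replicate numbers, the model and each array left out.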

Additional observations from a re-analysis of the deposited data

Results flagged for a closer look

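In 200 groups of 5 arrays (100 named genes in both windows), 1 array lay far from the other 4 in 10 cases by Dixon's test at the 95% level, which chance gives in about 5% of groups. The array rIPCl 1 was the one apart for AMBN (8.73), BST2 (10.7) and C1QB (12.2), where it was low, and for CYCS (14.4), where it was high. The array rIPCl 3 was high for CD79A (7.12) and PAG6 (4.06) and low for SPP1 (16.2). The others were APOE on rIPCe 1 (4.74, low), G6PC on rIPCe 3 (7.87, low) and HSPA8 on rIPCl 4 (16.3, high), all as log2 signals.

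Among 52 groups of list medians, 4 arrays stood apart. These were rIPCe 2 for endothelium (0.14), rIPCe 3 for fatty acid and lipid metabolism (-0.17), rIPCl 1 for neutrophils (-0.23) and rIPCe 1 for preconditioning mediators (-0.33), as median deviations in log2. No cause was tested.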

How the results depend on the processing

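At the unadjusted criteria 290 probes were called, against 611 without normalization between arrays, 27 with normexp background correction, 99 without dim probes, 1448 with slide as a block, 186 with slide as a random block and 2129 within slide 3. Leaving out each array in turn gave 245 to 511 probes, and leaving out rIPCe 1 and rIPCl 1 together, chosen after seeing the data, gave 559. After adjustment 1 probe passed, against 0 with the 75th percentile, without normalization, with all 15 arrays, with normexp, without dim probes, with the replicate block and within slide 3. It was 111 with the slide block, 1 to 5 with each array left out and 4 without both first arrays. The 29 genes became 8 with normexp, 109 with the slide block, 13 with the random block, 174 within slide 3, 15 to 54 with each array left out (15 without rIPCl 3, 49 without rIPCe 2, 54 without rIPCl 1) and 51 without both first arrays. All 29 genes kept their direction in every alternative other than the slide block and within slide 3, where 20 did, and the removal of dim probes, which tested 23. With the slide block and within slide 3 alike, the reversed values were APOE -0.20, CD72 -0.82, CD96 -0.53, EDDM3B -0.54, IL27 -0.044, IL2RG -0.18, LYZ -0.37, PDCD1LG2 -0.31 and PGM1 0.33. The cause was not tested. Without normalization, list medians changed sign for apoptosis (-0.02), endothelium (-0.03), erythroid and platelet genes (-0.09) and preconditioning mediators (-0.05). None did relative to the median of all genes. With normexp, medians were over 1.5 times smaller for, among others, neutrophils (0.61 to 0.13), cytokines (0.24 to 0.09), macrophages (0.55 to 0.31), B cells (0.44 to 0.28) and chemokines (0.59 to 0.36). The normexp offset of 50 makes differences of dim probes smaller, and its part in these changes was not tested.

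Arrays with the same replicate number did not deviate together (correlations -0.40 to 0.10), and the main fit did not pair them. A weak pairing could give the same values, so whether the numbers paired the samples cannot be told. A fit with the replicate block called 299 probes, 0 after adjustment, and 27 genes, 26 of them among the 29. The limma p of ADORA3 was 0.0634 with it.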
